A study of Mus musculus with 7 samples.

Results

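The interferon regulatory factors (IRFs) are a family of transcription factors, and 8 of them, Irf1, Irf2, Irf3, Irf4, Irf5, Irf7, Irf8 and Irf9, were followed in sorted heart group 2 innate lymphoid cells (ILC2s). The members were the rows of the count and FPKM tables that carry these symbols, 8 of 55335 gene identifiers, and all 8 passed the filter on low counts that left 17015 genes for testing. Cells from mouse hearts had been sorted by flow cytometry as CD45-positive, lineage-negative and ST2-positive, ST2 being the interleukin 33 receptor. The study compared ILC2s that infiltrate a graft with ILC2s of the resting heart, in 3 libraries labelled as naive heart (N1, N2 and N3) and 4 labelled as allograft (A1, A2, A3 and A4). The allografts were hearts of Balb/C donors placed in C57BL/6 recipients, a model that develops acute rejection, and were taken on day 7 after transplantation. The labels gave neither the strain of the naive hearts nor any allele, drug or sex for either group, and they carried the entry of 7 days on the naive samples too. Each library was made from cells pooled from 4 to 7 hearts by full-length amplification of messenger RNA, so p-values describe the spread between pools, and grafting, digestion of a rejecting heart and strain cannot be told apart.

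IRFs share a DNA-binding domain that recognises GAAA repeats, the core of the interferon-stimulated response element (ISRE). IRF3, IRF5 and IRF7 lie latent in the cytoplasm, are phosphorylated after sensors detect foreign nucleic acids, and switch on interferon genes. IRF9 is the DNA-binding subunit of the complex that answers type I interferon, IRF1 is itself induced by interferon gamma, and IRF2 competes with IRF1 for the same sites. IRF4 and IRF8 are largely restricted to blood cells: they bind composite sites with partners such as PU.1 and BATF, direct the development of dendritic cells, B cells and plasma cells, and IRF4 also acts downstream of antigen receptors and in type 2 cytokine production by lymphocytes.

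The proximal promoters of the members whose levels separated the groups most clearly by unadjusted p are shown. Marked in them are matches to letter patterns of STAT and NF-kappaB motifs. Each promoter is the 250 bases before the first listed start, from RefSeq on build GRCm38.p6, with the matches found by letter search in capitals. Irf1 lies at chr11:53769764-53770013 on the plus strand, Irf8 at chr8:120736108-120736357 on the plus strand and Irf4 at chr13:30748983-30749232 on the plus strand.
Irf1: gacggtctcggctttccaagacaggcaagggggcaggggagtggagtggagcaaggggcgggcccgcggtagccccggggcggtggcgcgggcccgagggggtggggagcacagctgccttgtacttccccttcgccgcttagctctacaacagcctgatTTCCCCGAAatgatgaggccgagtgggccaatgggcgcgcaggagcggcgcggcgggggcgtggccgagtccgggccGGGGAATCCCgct
Irf8: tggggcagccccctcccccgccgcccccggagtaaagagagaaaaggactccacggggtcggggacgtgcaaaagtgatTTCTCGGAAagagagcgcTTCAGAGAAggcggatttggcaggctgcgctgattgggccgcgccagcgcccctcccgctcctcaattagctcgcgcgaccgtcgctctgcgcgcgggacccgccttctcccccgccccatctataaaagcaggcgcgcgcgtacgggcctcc
Irf4: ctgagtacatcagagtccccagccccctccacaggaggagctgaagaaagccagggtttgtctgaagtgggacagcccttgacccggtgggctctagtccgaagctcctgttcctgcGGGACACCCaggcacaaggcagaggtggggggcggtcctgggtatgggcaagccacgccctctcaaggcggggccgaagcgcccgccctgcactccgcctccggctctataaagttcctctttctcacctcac

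The capitals in Irf1 mark a STAT-type GAS motif, TTCNNNGAA, that starts 90 bases before the start, and a run of overlapping kappaB motifs that starts 13 bases before it. In Irf8 they mark GAS matches at 171 and 153 bases before the start, and in Irf4 a kappaB match at 133 bases before it. The kappaB matches were to a short pattern of 9 letters, that of Irf4 being GGGACACCC. Both strands were searched, and windows of 300 bases (250 before and 50 after the start) were used for all counts. The 8 members had 11 such windows. GAS was found in 3 of the 11, those of Irf1, Irf2 and Irf8, against 8.30% of 32851 promoters, and kappaB in 4 of the 11, those of Irf1, Irf2, Irf4 and a further Irf8 start, against 15.3%. The ISRE motif GAAANNGAAA (3.44% of promoters) and the composite ETS-IRF motif GGAANNGAAA (2.72%) were each found in 1 window, that of Irf2, where they overlap. The windows of Irf3, Irf5, Irf7 and Irf9 held none of these letters. A match describes the sequence and is no measurement of binding.

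Values per library below are CPM, counts scaled to a common library size, after the library sizes were adjusted by trimmed mean of M values (normalised CPM), and log2 fold changes are allograft over naive from edgeR's quasi-likelihood test, with standard errors (SE) and p-values adjusted by Benjamini-Hochberg over all genes tested. The libraries held 29107326 to 53044907 counts, so a count of 0 allowed at most 0.0528 to 0.0978 normalised CPM, counting error only. N2 stood apart: mitochondrial transcripts made up 26.5% of its counts against 2.04% to 3.11% elsewhere, its summed ILC2 markers were 1795 CPM against 11810 to 16995, and its summed kidney genes were 15052 CPM against 78.0 to 290.4. Results are therefore also given without N2. The ILC2 label of the other libraries was met by Gata3, Il1rl1 (which encodes ST2) and Rora, all present in every library.

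No member passed the threshold of an adjusted p under 0.05 in the fit of all 7 libraries. That fit called 6 of 17015 genes (0.0353%), and at an unadjusted p under 0.05 it held 3 of the 8 members, Irf1, Irf4 and Irf8, where 10.3% of all genes reached that level. Irf4, Irf8 and Irf9 were higher in all 4 allografts than in any naive library (3 of 8 members, against 10.5% of genes tested), and Irf1 was lower in all 4 (1 of 8, against 3.19%). Irf2, Irf3, Irf5 and Irf7 overlapped between the groups. DESeq2, an alternative count test, called Irf4 and Irf8 higher (4.31% of genes were called higher) and Irf1 lower (2.09% were called lower). In the edgeR fit without N2, Irf1 was the member called, as lower (0.0998% of 18037 genes were called lower).

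**Figure D1:**
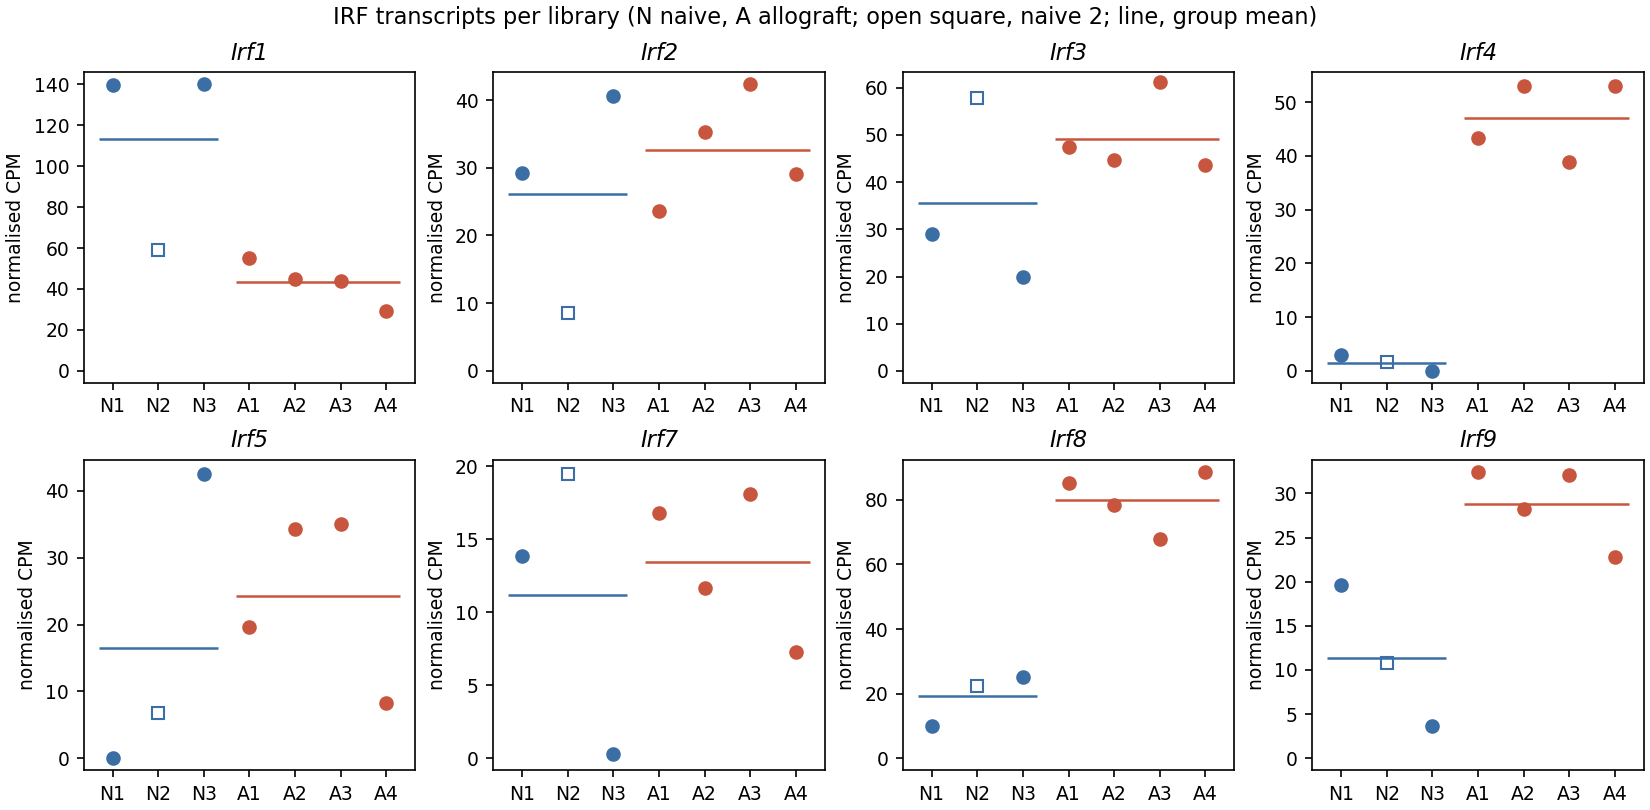
Normalised CPM (linear vertical axis, one panel per gene) of the 8 IRF genes in naive (N1 to N3, blue) and allograft (A1 to A4, red) libraries; lines are group means and the open square is N2. The red points of Irf4, Irf8 and Irf9 lie above all blue points, those of Irf1 lie below, and the remaining panels overlap.

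Irf4 (ENSMUSG00000021356, chr13:30749226-30766976, plus strand, build GRCm38), the IRF of activated lymphocytes and plasma cells, showed the widest separation. Its normalised CPM was 2.96, 1.64 and 0 in N1, N2 and N3 and 43.3, 52.9, 39.0 and 52.9 in A1 to A4. The raw counts behind these values were 168, 53 and 0 in the naive libraries and 2003, 1840, 1694 and 1623 in the allografts. Irf4 was thus low or at 0 in every naive library and lay within 1.36-fold among the allografts. The group means were 1.53 ± 1.48 (SD, n = 3) and 47.0 ± 7.04 (SD, n = 4), a ratio of 30.7, and 31.8 without N2. The log2 fold change was 4.93 (SE 1.50), with an edgeR adjusted p of 0.306, and 0.210 without N2. DESeq2 gave an adjusted p of 0.0131, and limma on log2(FPKM + 1) gave 0.0225, in a fit that called 0.429% of genes higher. With a pseudocount of 0.1 limma gave 0.0223, where 1.15% were called higher. Irf4 was thus called by DESeq2 and by limma on FPKM and not by edgeR, with 1 of the naive libraries at 0.

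Irf8 (ENSMUSG00000041515, chr8:120736358-120756694, plus strand), a factor of dendritic cell, monocyte and B cell development, was present in every library. Its normalised CPM was 9.90, 22.3 and 25.2 in N1 to N3 and 85.1, 78.5, 67.8 and 88.5 in A1 to A4. The lowest allograft exceeded the highest naive library more than 2-fold, and the allografts lay within 1.31-fold of one another. The means were 19.1 ± 8.11 (SD, n = 3) and 80.0 ± 9.11 (SD, n = 4), a ratio of 4.18, and 4.56 without N2. The log2 fold change of 2.07 (SE 0.41) had the smallest p of the family, 109th of 17015 genes, with an edgeR adjusted p of 0.144. Without N2 the log2 fold change was 2.17 with an edgeR adjusted p of 0.0570, and DESeq2 gave 1.84 and 0.00348 on all 7 libraries.

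In sorted bulk RNA, more cells of a type and more RNA per cell cannot be told apart, and Irf4 and Irf8 are also expressed by dendritic cells and B lineage cells, which the lineage-negative gate is meant to remove. Marker sums of those cells moved with both genes, though not every single marker did. The 12 conventional dendritic cell markers, of which 11 were detected, summed to 29.0 to 46.7 CPM in the naive libraries and 171 to 217 CPM in the allografts. Of these markers 7 were higher without overlap, beside 10.5% of genes tested, among them Flt3 (0, 1.95 and 0 against 25.9, 15.2, 21.1 and 25.3), Zbtb46 and Ccl22. Itgax was at 0 in all naive libraries and Clec4a4 at 0 everywhere. Xcr1 (11.8, 0 and 30.5 against 12.7 to 24.1) and Snx22 overlapped. So did Cd209a and Fscn1, whose log2 fold changes were -0.56 and -0.64. The 14 B and plasma cell markers, all detected, summed to 208 to 315 CPM and 708 to 988 CPM. In the allografts Igkc (333 to 452 CPM) and Ighm (215 to 355 CPM) gave most of that sum. Igkc was at 0, 19.8 and 0.701 CPM in N1 to N3, and Ighm, which overlapped, at 138, 27.7 and 246. The separation of this sum thus rests largely on Igkc and Ighm. Here 5 of the 14 were higher without overlap, beside the same 10.5%, and Ms4a1, Pax5, Fcer2a and Jchain were at 0 in every naive library. Pax5 was also at 0 in A3, and Fcer2a in A2 and A3. Ebf1, Sdc1, Cr2 and Xbp1 had log2 fold changes below 0, at -1.40, -3.20, -2.98 and -0.33. Of these, Ebf1, Sdc1 and Cr2 had naive counts in N2 alone. Cd79b was highest in N1, at 109 CPM. The part of dendritic and B lineage cells in the Irf4 and Irf8 results was not tested.

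The other marker sums differed in whether they separated the groups. Sums of 12 NK cell and ILC1 markers (35.4 to 283.7 against 319 to 457 CPM) and of 12 neutrophil and eosinophil markers (12.5 to 19.3 against 156 to 299 CPM) were higher in every allograft. Gzma alone gave most of the NK cell and ILC1 sum in the allografts, at 174 to 252 CPM. That list also holds Cma1, which is on the mast cell and basophil list too, at 48.3 to 60.0 CPM in the allografts. Of 12 T cell markers, 9 of them tested, 4 were higher without overlap (Cd3g, Trac, Trbc2 and Cd247), beside 10.5% of genes tested. Log2 fold changes lay above 0 for 6 of the 9 and were -1.13 for Cd3d, -0.059 for Themis and -0.004 for Cd3e. Sums for T cells (45.1 to 1070 against 1021 to 1194 CPM) and for macrophages and monocytes (2.32 to 504 against 167 to 274 CPM) overlapped. So did the plasmacytoid dendritic cell list, at 788 to 5355 against 746 to 984 CPM, with its defining marker Siglech at 0, 6.04 and 0 and at 2.23 to 6.17. Klk1 alone gave 4918 of the 5355 CPM in N2, the library with kidney genes, and Ptprcap 707 of 819 CPM in N1. This sum thus rests on single genes and does not say whether those cells differed. Summed ILC2 markers were 11833 to 12496 CPM in the allografts and overlapped with the naive libraries. Sums for mast cells and basophils (149 to 741 against 329 to 357 CPM, lower in every allograft without N2) and for heart cells (17.8 to 428.5 against 78.9 to 125 CPM, with Tnnt2 and Myl2 at 0 everywhere) overlapped too. Single mast cell and basophil markers differed from their sum. Of the 12, 3 were higher without overlap (Fcer1a, Hdc and Prss34) and 0 lower, beside 10.5% and 3.19% of genes tested. The median log2 fold change over the 11 tested was -0.31.

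**Figure D2:**
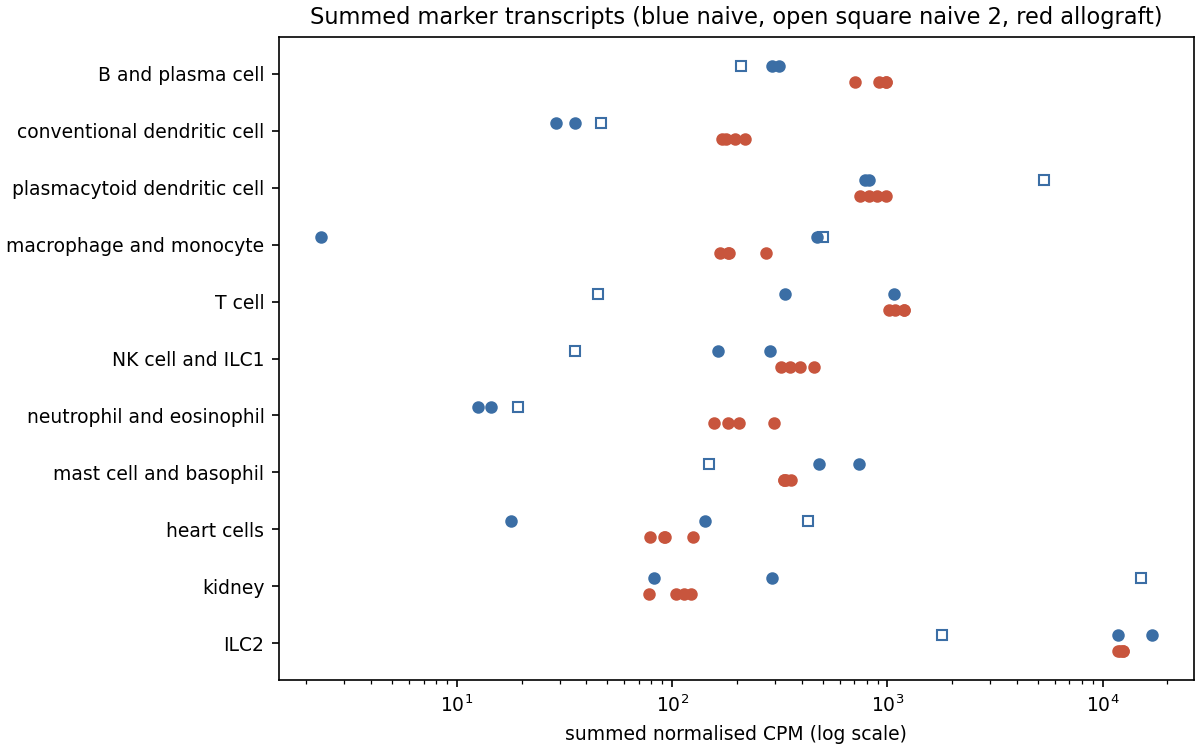
Summed normalised CPM (log horizontal axis) of each cell type's marker list in the 7 libraries, blue for naive, open squares for N2 and red for allograft. Conventional dendritic cell sums run from 29.0 to 46.7 in naive libraries and from 171 to 217 in allografts, and B and plasma cell sums are also separated, while T cell, macrophage and plasmacytoid dendritic cell sums overlap.

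Irf1 (ENSMUSG00000018899, chr11:53770014-53778374, plus strand), the interferon gamma response factor that carries the GAS motif above, went the other way. Its normalised CPM was 139.7, 59.2 and 140.2 in N1 to N3 and 55.3, 44.9, 43.8 and 29.4 in A1 to A4. All allografts lay below all naive libraries, with N2 only slightly above A1. Means were 113.0 ± 46.7 (SD, n = 3) and 43.3 ± 10.6 (SD, n = 4), so that naive libraries were 2.61-fold higher, and 3.23-fold higher without N2. The log2 fold change was -1.38 (SE 0.40), with an edgeR adjusted p of 0.277 on all 7 libraries. Without N2, Irf1 fell by 1.71 on the log2 scale (SE 0.29, edgeR adjusted p 0.0437), and DESeq2 on all libraries gave -1.54 (adjusted p 0.00933). The separation from N2 depended on scaling: as CPM of the deposited total, N2 had 42.0 and the allografts 31.0 to 58.1. On that scale 4 members were higher without overlap (Irf3 in addition, against 12.5% of genes) and 0 were lower (against 2.15%).

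Irf1 is also an early response gene that handling of cells can induce. A list of 20 genes that respond to tissue dissociation, written after the tables were seen, summed to 13783, 18184 and 51858 CPM in N1 to N3 and to 19347 to 22981 CPM in A1 to A4. These sums overlapped, with N1 the lowest and N3 the highest. The median log2 fold change of the list was -0.66, and -0.92 without N2, with 6 of 20 genes above 0. Of the list Egr1 and Socs3 were lower in every allograft (3.19% of genes tested were) and 0 were higher without overlap (10.5% were). The part of handling in the Irf1 result was not tested. In the annotation 135 exonic bases of Irf1 (3.40%) are shared with Gm17334 on the opposite strand, and use of strand in counting was not stated.

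Irf2 (ENSMUSG00000031627, chr8:46739732-46847458, plus strand), the competitor of IRF1, did not follow it. It was at 29.2, 8.49 and 40.6 normalised CPM in N1 to N3 and at 23.6, 35.2, 42.4 and 29.1 in A1 to A4. The allografts lay inside the naive range except for A3, and N2 was the low library. Irf2 had a log2 fold change of 0.32 (SE 0.56, edgeR adjusted p 0.929), with a value of -0.12 without N2.

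Irf9 (ENSMUSG00000002325, chr14:55603571-55610030, plus strand), the DNA-binding subunit of the type I interferon complex, was at 19.6, 10.8 and 3.60 normalised CPM in N1 to N3 and at 32.4, 28.2, 32.1 and 22.8 in A1 to A4. The groups did not overlap, but N1 came close to A4. Means were 11.3 ± 8.04 (SD, n = 3) and 28.9 ± 4.49 (SD, n = 4), a ratio of 2.55. Its log2 fold change of 1.35 (SE 0.62) did not pass edgeR's test (adjusted p 0.532, and 0.340 without N2), nor any of the 17 other settings tried. Irf9 shares 123 exonic bases (2.28%) with Rnf31 on the same strand.

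Irf3 (ENSMUSG00000003184, chr7:44997648-45002848, plus strand), the latent factor behind the first interferon beta, was at 29.0, 57.8 and 19.8 normalised CPM in N1 to N3 and at 47.4, 44.6, 61.2 and 43.7 in A1 to A4. N2 was the naive library that reached into the allograft range. On all libraries the log2 fold change was 0.47 (SE 0.43, edgeR adjusted p 0.813). Without N2 it was 0.99 (SE 0.33, edgeR adjusted p 0.174), where the median of all genes was 0.23. That fit placed 4 members higher without overlap (20.8% of genes) and 1 lower (7.31%). DESeq2 without N2 gave Irf3 an adjusted p of 0.0488, in a fit that called 12.6% of genes higher and 3.03% lower.

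Irf5 (ENSMUSG00000029771, chr6:29526625-29541871, plus strand), which acts below Toll-like receptors in myeloid and B cells, had the largest standard error of the family. It was at 0, 6.69 and 42.6 normalised CPM in N1 to N3, from 0, 216 and 1882 counts, and at 19.6, 34.2, 35.1 and 8.32 in A1 to A4. The highest and the lowest library were both naive, and the allografts spread 4.22-fold. Its log2 fold change of 0.57 (SE 1.69, edgeR adjusted p 0.966) was -0.017 without N1. Of its exonic bases 411 (14.1%) overlap Tnpo3 on the opposite strand.

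Irf7 (ENSMUSG00000025498, chr7:141262706-141266481, minus strand), the amplifier of type I interferon production and itself an interferon-stimulated gene, had the lowest mean FPKM of the family in the allografts. It was at 13.9, 19.5 and 0.271 normalised CPM in N1 to N3 and at 16.8, 11.6, 18.1 and 7.24 in A1 to A4. N3, with 12 counts, stood below all others, and the rest overlapped. Irf7 had a log2 fold change of 0.26 (SE 1.13, edgeR adjusted p 0.978) and -0.30 without N3.

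**Figure D3:**
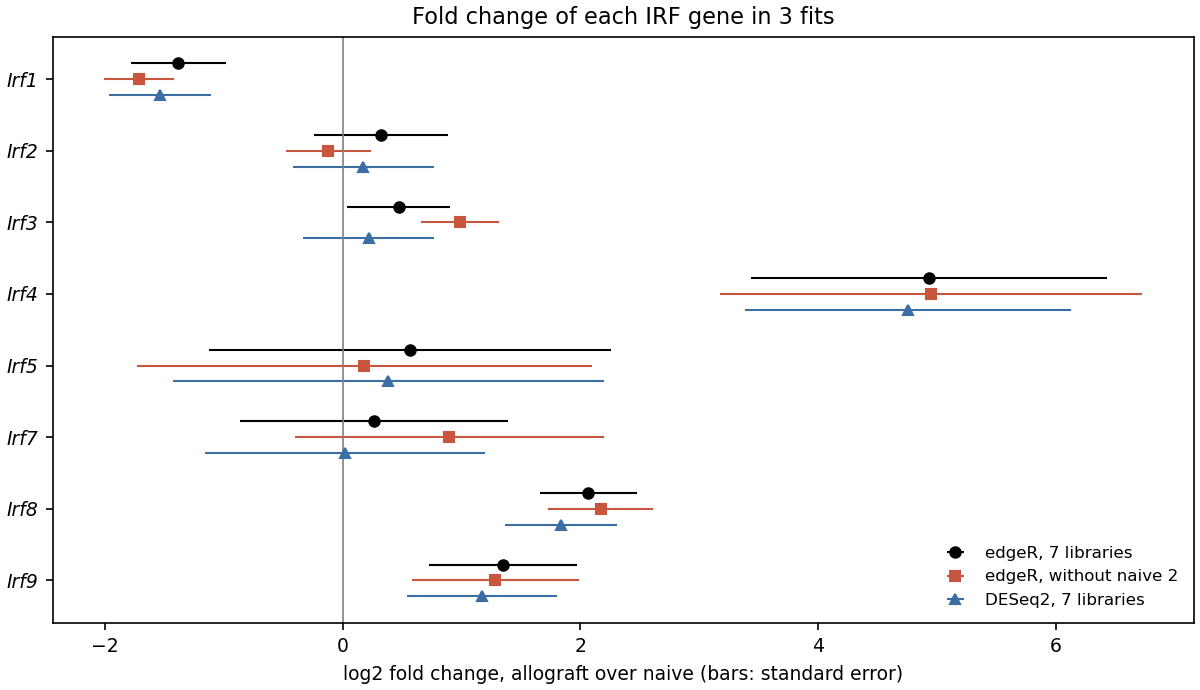
Log2 fold change of each IRF gene, allograft over naive (horizontal axis, bars are standard errors), from edgeR on 7 libraries (black), edgeR without N2 (red) and DESeq2 on 7 libraries (blue). Irf4 lies near 4.9 in each fit with wide bars, Irf8 near 2, Irf1 is the gene below 0 in each fit, and Irf2 changes side without N2.

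The make-up of the family was compared per unit of gene length, with the authors' FPKM. In naive libraries Irf1 had the highest mean at 24.8 ± 13.1 FPKM (SD, n = 3), followed by Irf3 at 7.98, Irf5 at 4.88, Irf2 at 3.12, Irf7 at 2.28, Irf8 at 2.19, Irf9 at 1.77 and Irf4 at 0.260. Neighbours in this order overlapped over libraries, apart from Irf9 and Irf4. Among the allografts the order began with Irf3 at 13.1 ± 2.23 FPKM, Irf8 at 10.4 ± 1.10, Irf1 at 10.0 ± 2.42 and Irf4 at 8.79 ± 1.34 (SD, n = 4). It went on with Irf5 at 7.70, Irf9 at 4.90, Irf2 at 4.04 and Irf7 at 3.23, and of these neighbours the ranges of Irf3 and Irf8 alone were separate.

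As a share of the summed FPKM of the 8 genes, Irf1 made up 61.9%, 32.6% and 53.9% in N1 to N3 and 20.2%, 15.9%, 14.7% and 13.1% in A1 to A4. The share of Irf4 was 1.06%, 0.722% and 0% in the naive libraries and 12.8%, 15.2%, 10.6% and 19.2% in the allografts. Irf8 held 2.46%, 6.90% and 5.44% against 17.5%, 15.7%, 12.8% and 22.3%. These shares do not depend on the scaling of a library, but as parts of a sum they are tied: more Irf4 or Irf8 lowers the Irf1 share by itself. In N2 too the Irf1 share lay above every allograft. The Irf1 level of N2, 9.69 FPKM, lay inside the allograft range of 6.74 to 12.6. The summed FPKM of the family itself overlapped, at 53.3, 29.7 and 58.8 against 62.3, 65.9, 69.1 and 51.3. Allograft libraries thus held Irf1, Irf3, Irf4 and Irf8 at levels of the same order. Irf5 was among them in A1 to A3, at 6.10 to 11.1 FPKM, and lower in A4, at 2.60. N1 and N3 held mostly Irf1.

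**Figure D4:**
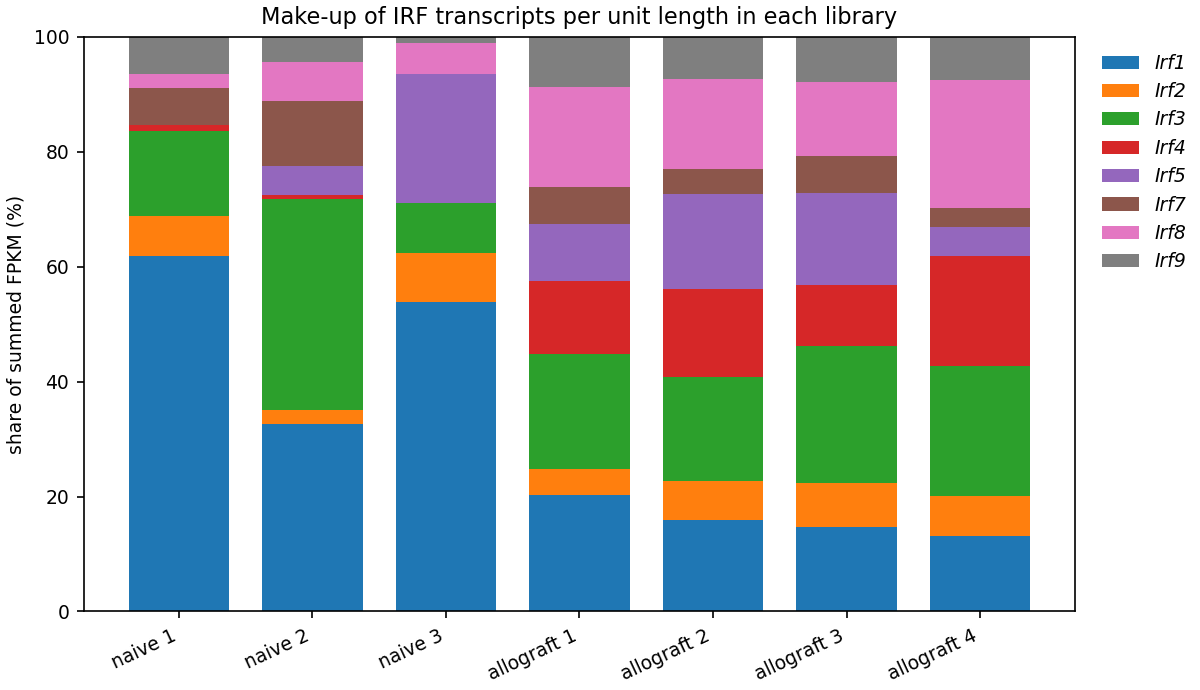
Share of the summed FPKM of the 8 IRF genes taken by each gene (stacked bars, percent) in the 7 libraries. Irf1 takes 32.6% to 61.9% of naive bars and 13.1% to 20.2% of allograft bars, while Irf4 and Irf8 widen in the allografts.

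Genes that act around the IRFs were taken from 9 lists with 143 genes other than the members, of which 128 were tested. None was called by edgeR on all 7 libraries, with 4 higher and 5 lower at an unadjusted p under 0.05. DESeq2 called 2 higher and 2 lower of 124. The median log2 fold change was 0.36, beside -0.01 over all genes tested. Without N2 both medians were 0.23, and edgeR called 6 genes higher (3.0% of all genes were called higher) and 0 lower. The 6 were Mx1, Spi1, Batf3, Gbp3, Swap70 and Ifng. Apart from Swap70 these genes were at 0 in N1 and N3, so they entered that fit through their allograft counts alone. N2, left out there, held each of them at 0.868 to 11.3 CPM. Without overlap 20 of the 128 were higher (15.6%, beside 10.5% of all genes tested) and 2 lower (1.56%, beside 3.19%), and the counts per list that follow are to be read against the same shares of all genes.

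Among the ligands, Ifng, which encodes interferon gamma, was at 0, 2.60 and 0 normalised CPM in N1 to N3 and at 20.2, 21.9, 13.6 and 17.0 in A1 to A4. It was higher in every allograft, with an edgeR adjusted p of 0.579 on all libraries and 0.023 without N2, where N1 and N3 were at 0. Ifnb1 and the listed interferon alpha and lambda genes were at or near 0 in every library. The 6 interferon receptor genes, such as Ifnar1 and Ifngr2, all overlapped between the groups.

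Of 9 genes of JAK-STAT signalling and its feedback, 1 was lower without overlap. It was Socs3, a feedback inhibitor of cytokine receptors, at 32.1, 57.0 and 52.1 normalised CPM in N1 to N3 and at 23.9, 24.3, 18.9 and 17.4 in A1 to A4 (log2 fold change -1.15, edgeR adjusted p 0.332, called lower by DESeq2). Socs3 was thus lower in all 4 allografts, as Irf1 was.

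Of 22 sensors, adaptors and kinases that activate IRF3, IRF5 and IRF7, 3 were higher and 1 lower without overlap. Mavs, the mitochondrial adaptor of RNA sensing, was at 25.3, 87.9 and 42.9 normalised CPM in N1 to N3 and at 13.9, 22.4, 6.51 and 9.46 in A1 to A4 (log2 fold change -2.0, edgeR adjusted p 0.304, called lower by DESeq2). Mb21d1, which encodes the DNA sensor cGAS, was at 1.14, 0 and 0 and at 8.90, 12.1, 16.2 and 11.6 (edgeR adjusted p 0.474). The adaptor gene 5430427O19Rik, also known as Tasl, which recruits IRF5, was at 0.211, 0 and 0 and at 7.50, 13.0, 3.13 and 5.38 (edgeR adjusted p 0.314, called higher by DESeq2).

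The 12 DNA-binding partners of IRF4 and IRF8 included 4 that were higher without overlap and 0 that were lower. Their median log2 fold change was -0.03, with 6 of 12 above 0, and 0.07 without N2, beside 0.23 over all genes. Jund overlapped between the groups, with a log2 fold change of -0.85 (edgeR adjusted p 0.685) and -1.07 without N2 (0.255). Batf, which pairs with IRF4 on AP-1 composite sites, was at 125.0, 2.42 and 127.0 normalised CPM in N1 to N3 and at 250.2, 218.6, 201.6 and 185.1 in A1 to A4 (edgeR adjusted p 0.76). Spi1, which encodes PU.1, was at 0, 7.81 and 0 and at 21.5, 18.8, 12.1 and 13.1 (edgeR adjusted p 0.78, and 0.02 without N2, with N1 and N3 at 0). Stat6, the interleukin 4 signal carrier, was at 42.7, 34.9 and 67.5 and at 84.9, 87.9, 71.7 and 80.5 (edgeR adjusted p 0.499). Spi1 and Batf3 are also expressed by myeloid and dendritic cells, whose marker sums are given above.

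Among 11 proteins that bind or modify IRFs, Swap70, a partner of IRF4 that limits its access to DNA, had the smallest p. It was at 51.0, 29.5 and 40.1 normalised CPM in N1 to N3 and at 105, 113, 137 and 116 in A1 to A4. Every allograft exceeded every naive library. The log2 fold change was 1.55 (SE 0.31, edgeR adjusted p 0.144), the adjusted p was 0.048 without N2, and DESeq2 called it higher.

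No listed target was called on all 7 libraries. Of 25 type I interferon stimulated genes 4 were higher without overlap and 0 lower, with a median log2 fold change of 0.54 over 24 tested. Without N2 that median was 1.25, beside 0.23 over all genes. The list then held 4 genes at 0 in N1 and N3, which entered that fit through their allograft counts. A bound of 3 counts per library kept these 4 above the median, so it could not move that value. The list's summed level overlapped between the groups with N2 (732 CPM) and was higher in every allograft without it, at 327 and 319 CPM in N1 and N3 and 380 to 430 CPM in A1 to A4. Bst2, a membrane restriction factor, was at 59.2, 34.9 and 42.9 normalised CPM in N1 to N3 and at 88.0, 60.8, 64.2 and 71.6 in A1 to A4 (edgeR adjusted p 0.584). Ifit3 was high in N2 alone, at 144 against 9.99 and 0 in N1 and N3 and 0.736 to 2.09 in the allografts (log2 fold change -5.10, edgeR adjusted p 0.422). Rtp4, a chaperone of receptor transport, was at 5.04, 22.3 and 35.1 and at 3.78, 5.12, 11.7 and 6.62 (log2 fold change -1.61, edgeR adjusted p 0.570).

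Of 30 IRF1-bound and class I processing genes 2 were higher without overlap and 0 lower. Their median log2 fold change was 0.30, and 0.06 without N2, beside 0.23 over all genes. Irgm1, an interferon gamma induced GTPase, had the smallest p of the list, at 41.1, 80.7 and 18.4 normalised CPM in N1 to N3 and at 15.1, 9.09, 24.6 and 11.5 in A1 to A4 (log2 fold change -1.63, edgeR adjusted p 0.372). Socs1, an inhibitor of interferon receptor signalling, was at 76.0, 13.4 and 297.2 and at 51.0, 43.2, 41.0 and 38.6 (log2 fold change -1.57, and -2.12 without N2, edgeR adjusted p 0.619 and 0.0753). Both genes overlapped between the groups. Tap2, the class I peptide transporter, was at 63.4, 21.1 and 32.0 and at 117.7, 86.8, 99.5 and 60.2 (edgeR adjusted p 0.389).

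Of 20 genes that IRF4 binds or controls in lymphocytes 4 were higher without overlap and 0 lower, with a median log2 fold change of 0.82 that was 0.23 without N2, the value over all genes. Those 4 were Il4, Il10, Il13 and Zbtb32, and Il4, a type 2 cytokine, was at 30.2, 1.27 and 43.4 normalised CPM in N1 to N3 and at 68.3, 56.4, 69.6 and 49.7 in A1 to A4 (edgeR adjusted p 0.74). Slc2a1, a glucose transporter, had the smallest p of the list, at 64.5, 95.7 and 96.8 and at 49.6, 45.6, 47.6 and 66.8 (log2 fold change -0.71, edgeR adjusted p 0.481). Bcl6, a repressor of lymphocyte differentiation, was at 5.46, 3.07 and 32.8 and at 4.93, 4.09, 3.50 and 4.08 (log2 fold change -1.73, edgeR adjusted p 0.625).

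**Figure D5:**
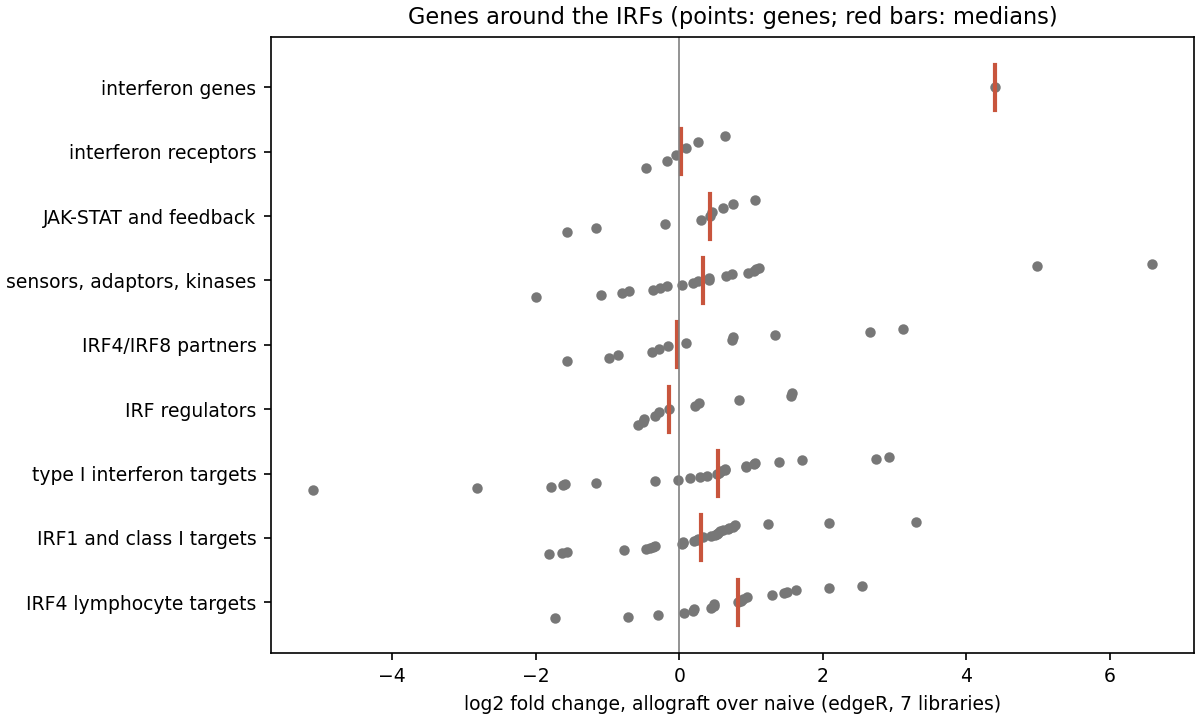
Log2 fold change, allograft over naive, of the tested genes in 9 lists around the IRFs (points are genes, red bars are list medians, edgeR on 7 libraries). List medians lie between -0.14 and 0.82, except for the interferon genes where Ifng alone was tested.

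Genes whose profile over the 7 libraries was most like a member's were found by the mean absolute difference of centred log2 CPM among 8041 genes, for the members with a mean log2 CPM of at least 3, which left out Irf4. The nearest to Irf8 was H2-DMa (mean difference 0.23), a chaperone of MHC class II loading, followed by Tppp3 (0.27), where the median gene differed by 1.10. H2-DMa was at 16.2, 32.8 and 25.4 normalised CPM in N1 to N3 and at 117, 104, 140 and 108 in A1 to A4. Irf1 was nearest to Gdap2 and Rnf113a2 (both 0.22). Irf9 was nearest to Frmd8 (0.13) and Lrrfip1 (0.16), Irf2 to Lef1 (0.09) and H3f3b (0.15), and Irf3 to 1700037H04Rik (0.08) and Icmt (0.12). For Irf7 they were Nucb2 (0.21) and Ric8b (0.34), and for Irf5 Xcl1 (0.56) and Cables2 (0.68), the loosest of the matches. With 7 libraries and so many genes, near matches describe these libraries.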

How the data were processed

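RNA sequencing of 7 pools of sorted ILC2s was used: 3 naive and 4 allograft libraries, grouped by sample titles. The authors deposited whole-number counts and FPKM (fragments scaled to gene length and library depth) for 55335 identifiers. Per the submitters' processing notes, FastQC 0.11.5, STAR 2.5.3a, StringTie 1.3.1c, DESeq2 1.16.1 and build mm10 were used. Use of strand was not stated. FPKM and counts carried the same measurement: among the 7340 identifiers that reached 100 counts in each of the libraries, the SD of log2 FPKM minus log2 CPM was at most 0.0035 per library. FPKM served for levels between genes.

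Counts were tested with edgeR 4.0.16 in R 4.3.3 (filterByExpr, TMM, quasi-likelihood, Benjamini-Hochberg, adjusted p under 0.05), without a replicate block, and the test was checked on simulated data. Alternatives used DESeq2 1.42.0, limma 3.58.1, other filters, scaling and pseudocounts, and left out each library. Named genes were the 8 members, up to 3 genes per list by threshold or smallest p, and the 2 most alike genes per member. Batf, Spi1, Il4, Il10, Il13, Mx1 and Gbp3 among the surrounding genes, and single marker and dissociation genes, were named after their values were seen. The members and lists were chosen with earlier results of these data known, and the dissociation and kidney lists were written after the tables were seen. Coordinates and overlaps came from GENCODE M21 on GRCm38, which mm10 names, and promoters and their build from RefSeq. The values of 1 surrounding gene are not reported here.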

Additional observations from a re-analysis of the deposited data

Results flagged for a closer look

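One value stood apart within its group. The summed normalised CPM of the 14 macrophage and monocyte markers was 274.2 in A1, against 166.5 to 183.1 in A2, A3 and A4, a gap larger than Dixon's 95% critical value allows for 4 samples. Chance gives about 1 in 20 such gaps, or 1.5 over the 30 groups of 4 that were examined. Irf5 and Irf8 in A1 lay inside the range of the other allografts, at 19.6 and 85.1 normalised CPM.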

How the results depend on the processing

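Calls of members and counts of calls depended on the test and on single libraries. Against 6 genes called by edgeR on all libraries, DESeq2 called 1224, voom with sample weights 1, and limma 76 on log2(FPKM + 1) and 201 on log2(FPKM + 0.1). DESeq2 without N2, chosen after seeing the data, called 3205. Leaving out 1 library gave 0 to 560 genes: 107 without N1, 560 without N2, 7 without N3 and 0 without any 1 of the allografts, where between 848 and 1074 genes lay below 0.05 before adjustment. Of the members, where 0 were called, DESeq2 called 3, limma 1 at each pseudocount (Irf4), leaving out a library 0 to 1 (Irf1 without N2), and DESeq2 without N2 called 4 (Irf1, Irf3, Irf4 and Irf8). Of the surrounding genes, where 0 were called, the counts were 4 with DESeq2, 1 and 3 with limma at pseudocounts of 1 and 0.1, 0 to 6 when leaving out a library (3 without N1) and 27 with DESeq2 without N2. Irf1, Irf3, Irf4, Irf8 and Irf9 kept their direction in all 17 alternatives. Irf2 ranged from -0.12 to 0.79 when leaving out a library and was -0.21 by DESeq2 without N2. Irf5 ranged from -0.017 to 2.89 and Irf7 from -0.30 to 0.90 when leaving out a library. The count of 4 members without overlap was 4 on CPM of the deposited total, with Irf3 in place of Irf1. The cause of these changes was not tested. DESeq2 size factors moved the median log2 fold change by -0.19 relative to TMM. Same-numbered libraries deviated together at r = 0.0169, -0.0196 and 0.0360, inside the range of differently numbered pairs, -0.0870 to 0.0760. With so few libraries per group this cannot show whether same-numbered libraries were handled together. With a replicate block 0 genes were called, 252 having an unadjusted p under 0.05, and Irf1 was at -1.14 (edgeR adjusted p 1).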
